A study of Mus musculus with 24 samples.

Results

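Heparan sulfate is shaped by a small set of enzymes that place and remove sulfate at the 2-O and 6-O positions, and 7 of their genes were followed in degenerating mouse retina. They are Sulf1 and Sulf2 (6-O-endosulfatases), Hs6st1, Hs6st2 and Hs6st3 (6-O-sulfotransferases), Hs2st1 (the 2-O-sulfotransferase) and Glce (the C5 epimerase). They were chosen by gene identity: every probe set whose RefSeq transcript maps to one of these genes was taken. This gave 7 probe sets, 1 per gene, out of 1246 on the array, where 963 probe sets could be matched to 909 genes. Total RNA came from retinas of mice labelled as RP (retinitis pigmentosa) mutants carrying the P347S rhodopsin mutation and from normal mice without it, each profiled monthly from 1 to 4 months. P347S mice are a transgenic line in which rod photoreceptors degenerate slowly, with little visible loss at the first age and extensive rod loss at the last, as the design text states. Each of the 8 groups had 3 arrays, 24 in all. The sex of the mice is labelled as unknown, and the strain, the promoter of the transgene, the age at which it is switched on and any pooling of retinas are not given in the sources used here. Whether the 3 arrays of a group stand for separate mice is not stated, so each p reflects no more than the spread between these samples, and 3 arrays a group limit the precision.

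Heparan sulfate is a long sugar chain carried by proteoglycans on the cell surface and in the extracellular matrix. While the chain is made in the Golgi, Glce converts glucuronic acid to iduronic acid, Hs2st1 adds sulfate to uronic acid, mainly iduronic acid, at the 2-O position, and the Hs6st enzymes add sulfate to glucosamine at the 6-O position. Sulf1 and Sulf2 act later and outside the cell, where they clip 6-O-sulfates from finished chains. The pattern of 2-O and 6-O sulfates sets how chains bind growth factors such as FGFs, VEGF and Wnts, and 6-O-sulfation is known to bear on FGF and Wnt signalling.

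Values are log2 RMA signals, a normalized brightness of a probe set on a log scale. Array medians lay between 5.15 and 5.34. A galectin-related lens gene, Grifin, set 3 arrays apart, with log2 signals of 10.16 to 11.33 against 5.69 to 8.77 in the other 21. They were replicate 2 of both genotypes at 2 months and replicate 1 of the normal retinas at 4 months. Among the tests of Sulf1 and Hs6st2, only the call of Sulf1 at 2 months ended without these arrays. Values without them are given below for several of these tests. Defining markers of retinal cells were largely not on the array: 1 of 11 rod markers (Gnb1) and 0 of 4 cone and 0 of 7 bipolar and amacrine cell markers were measured, so the tissue label could not be checked against them. In whole retina, fewer cells of a type and less RNA per cell cannot be told apart.

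Sulf1 and Hs6st2 rose in P347S retinas and the other 5 genes did not pass the test. Sulf1 passed at each of the 4 ages and Hs6st2 at 3 and 4 months, with the calls of Sulf1 at 2 months and Hs6st2 at 3 months lost in some settings. A change of the difference with age did not pass for either gene (F test, adjusted p = 0.366 for Sulf1 and 0.0729 for Hs6st2). Over the 4 ages, 2 of the 7 genes passed, both higher, where 22.6% of all 1246 probe sets passed (13.8% higher and 8.83% lower) at a limma adjusted p under 0.05. At 1 month 1 of 7 passed, higher, against 0.321% of all probe sets (0.241% higher and 0.0803% lower). At 2 months 1 of 7 passed, higher, against 3.45% (1.52% higher and 1.93% lower). At 3 months 2 of 7 passed, both higher, against 12% (6.66% higher and 5.38% lower), and at 4 months 2 of 7, both higher, against 12.9% (9.47% higher and 3.45% lower). The median difference of the 7 genes over the 4 ages was -0.0048 on the log2 scale, beside -0.03 for all probe sets.

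Sulf1 encodes the first of the extracellular 6-O-endosulfatases, and its mean log2 signal over all arrays was 8.79, in the upper part of the array's range. In P347S retinas Sulf1 read 9.12, 8.84 and 8.97 in the 3 arrays of 1 month, 9.03, 9.16 and 8.92 at 2 months, 9.07, 9.21 and 9.31 at 3 months, and 9.53, 9.38 and 9.31 at 4 months. In normal retinas it read 8.27, 8.18 and 8.33 at 1 month, 8.62, 8.41 and 8.61 at 2 months, 8.62, 8.20 and 8.51 at 3 months, and 8.58, 8.47 and 8.36 at 4 months. Every P347S array lay above every normal array: the lowest of the 12 P347S arrays read 8.84 and the highest of the 12 normal arrays 8.62. The genotypes were apart in either direction in 22.1%, 17.4%, 32.6% and 30% of all probe sets at 1, 2, 3 and 4 months. Of all probe sets 0.963% separated the 12 and 12 arrays without overlap in either direction, and 1.93% had P347S above normal at all 4 ages.

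**Figure D1:**
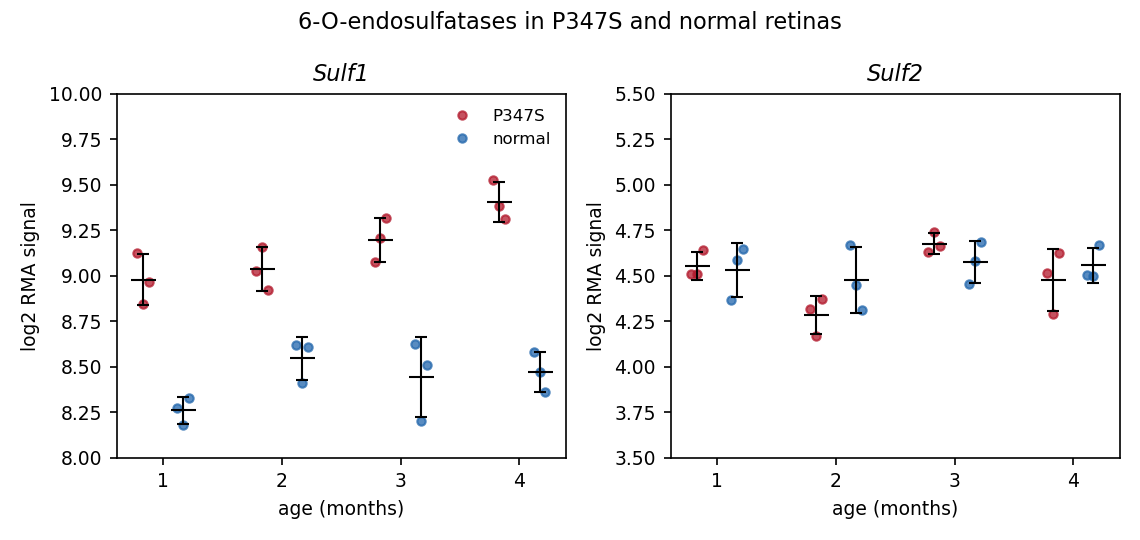
Log2 RMA signal of Sulf1 (left) and Sulf2 (right) by age in months, with 3 arrays a group as points (P347S red, normal blue) and bars for the mean ± SD. Both axes span the same number of log2 units; for Sulf1 the red points start at 8.84 and the blue points end at 8.62, while for Sulf2 the colours overlap at every age.

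The Sulf1 difference between P347S and normal retinas was 0.72 ± 0.11 (SE) on the log2 scale at 1 month, a 1.64-fold higher signal (limma adjusted p = 0.000838). It was 0.49 ± 0.11 at 2 months, 1.40-fold higher (adjusted p = 0.0127), 0.75 ± 0.11 at 3 months, 1.69-fold (adjusted p = 0.000405), and 0.93 ± 0.11 at 4 months, 1.91-fold (adjusted p = 2.87e-05). By p-value Sulf1 ranked 2, 16, 2 and 1 of 1246 at 1, 2, 3 and 4 months. Among the ages the call at 2 months was the least firm. It ended without the 3 arrays high in Grifin (difference 0.36, adjusted p = 0.221), without P347S replicate 2 alone (0.43, adjusted p = 0.0744), without normal replicate 2 alone (0.42, adjusted p = 0.0724) and with only the 6 arrays of that age in the fit (adjusted p = 0.119).

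Over the 4 ages the Sulf1 difference was 0.71 without the 3 arrays high in Grifin, beside 0.72 with all arrays. Whether the difference changes with age was tested with a moderated F test, and Sulf1 did not pass (adjusted p = 0.366). Within P347S retinas Sulf1 was higher at 4 months than at 1 month by 0.43 ± 0.11 (adjusted p = 0.0289), where 2.65% of all probe sets passed (1.52% higher at 4 months and 1.12% lower). Within normal retinas the same step was 0.21 ± 0.11 and did not pass (adjusted p = 0.684). The rise with age in P347S retinas no longer passed with each array centred on its median (0.40, adjusted p = 0.0566), with only the 6 arrays compared (adjusted p = 0.0729), or without P347S retinas of 1 month replicate 2 (0.36, adjusted p = 0.183) or replicate 3 (0.42, adjusted p = 0.0923), or without P347S retinas of 4 months replicate 1 (0.37, adjusted p = 0.141) or replicate 2 (0.44, adjusted p = 0.0867).

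Ordered by group mean, Sulf1 was highest in P347S retinas of 4 months at 9.41 ± 0.11 (SD, n = 3), followed by P347S retinas of 3, 2 and 1 months at 9.20 ± 0.12, 9.04 ± 0.12 and 8.98 ± 0.14. The normal groups came below, at 8.55 ± 0.12 at 2 months, 8.47 ± 0.11 at 4 months, 8.44 ± 0.22 at 3 months and 8.26 ± 0.07 at 1 month. Arrays of neighbouring groups in this order overlapped at every step but the one between the genotypes, a step of 0.43.

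Sulf2, the second extracellular 6-O-endosulfatase, had a low signal, with a mean of 4.52, above 38.6% of probe sets. Background is not known on this array, so a change in Sulf2 could be compressed. Its P347S arrays read 4.51, 4.51 and 4.64 at 1 month, 4.32, 4.17 and 4.37 at 2 months, 4.63, 4.74 and 4.66 at 3 months, and 4.51, 4.29 and 4.62 at 4 months. Its normal arrays read 4.36, 4.58 and 4.65 at 1 month, 4.67, 4.45 and 4.31 at 2 months, 4.45, 4.58 and 4.68 at 3 months, and 4.51, 4.50 and 4.67 at 4 months. The genotypes overlapped at every age. The difference over the 4 ages was -0.04 ± 0.05 (adjusted p = 0.626), with a 95% interval of -0.14 to 0.07, and the difference at 2 months, -0.19 ± 0.10, was the lowest of the 4 and did not pass (adjusted p = 0.411).

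Hs6st2 encodes one of the Golgi enzymes that add 6-O-sulfate. In P347S retinas it read 6.95, 7.14 and 7.44 at 1 month, 6.79, 6.60 and 6.69 at 2 months, 7.33, 7.48 and 7.37 at 3 months, and 7.74, 7.72 and 7.66 at 4 months. In normal retinas it read 6.97, 7.06 and 7.19 at 1 month, 6.75, 6.68 and 6.64 at 2 months, 7.03, 6.62 and 7.13 at 3 months, and 6.87, 6.94 and 6.98 at 4 months. The genotypes overlapped at 1 and 2 months and were apart at 3 and 4 months, when 32.6% and 30% of all probe sets were apart. At 2 months both genotypes read low.

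The Hs6st2 difference was 0.10 ± 0.12 at 1 month (adjusted p = 0.911) and 0.00145 ± 0.12 at 2 months (adjusted p = 1.00). It was 0.47 ± 0.12 at 3 months, 1.38-fold higher in P347S retinas (adjusted p = 0.0135), and 0.78 ± 0.12 at 4 months, 1.71-fold higher (adjusted p = 0.000174), the 10th smallest p of 1246. The call at 3 months ended with the arrays quantile normalized again (0.32, adjusted p = 0.0643), with only the 6 arrays of that age (adjusted p = 0.0905), without P347S replicate 2 (0.42, adjusted p = 0.0577) and without normal replicate 2 (0.31, adjusted p = 0.0874), the array that read 6.62. The call at 4 months held in each of these settings, with adjusted p between 4.38e-05 and 0.00179 when each array was left out in turn and 0.00294 without the 3 arrays high in Grifin.

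Over the 4 ages the Hs6st2 difference was 0.34 ± 0.06 (adjusted p = 0.000203), and without the 3 arrays high in Grifin it was 0.34 ± 0.07 (adjusted p = 0.00148). The F test of whether the Hs6st2 difference changes with age did not pass, with an F of 9.44, rank 7 of 1246 and an adjusted p of 0.0729, where 4 probe sets passed (0.321%). The F test passed without P347S retinas of 1 month replicate 3 (adjusted p = 0.0446), without normal retinas of 2 months replicate 1 (0.0462) and without normal retinas of 3 months replicate 2 (0.0325). Without the 3 arrays high in Grifin it gave 0.268, and with the replicate number as a block 0.157. Within P347S retinas Hs6st2 was higher at 4 months than at 1 month by 0.53 ± 0.12 (adjusted p = 0.0180), and within normal retinas the step was -0.15 ± 0.12 (adjusted p = 0.959). This call in P347S retinas ended with only the 6 arrays compared (adjusted p = 0.0729), without P347S retinas of 1 month replicate 1 (0.41, adjusted p = 0.0929) or 2 (0.51, adjusted p = 0.0795), and without P347S retinas of 4 months replicate 1 (0.51, adjusted p = 0.0537) or 2 (0.52, adjusted p = 0.0582). P347S retinas of 4 months had the highest Hs6st2 group mean, 7.71 ± 0.04 (SD, n = 3), and did not overlap the next, P347S retinas of 3 months at 7.39 ± 0.08. The lowest means were 6.69 ± 0.09 in P347S and 6.69 ± 0.05 in normal retinas of 2 months, and every other neighbouring pair of groups in this order overlapped.

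**Figure D2:**
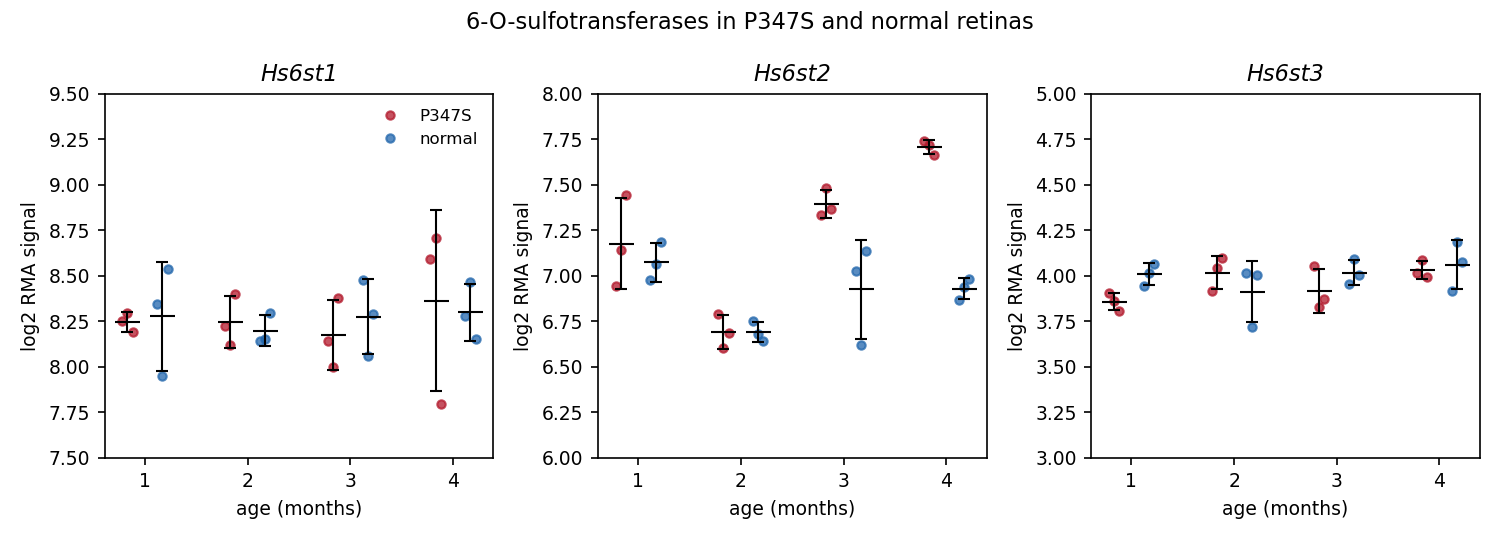
Log2 RMA signal of Hs6st1, Hs6st2 and Hs6st3 by age in months, with 3 arrays a group as points (P347S red, normal blue) and bars for the mean ± SD, on axes that span the same number of log2 units. For Hs6st2 the red points lie at 7.66 to 7.74 at 4 months against 6.87 to 6.98 for the blue points, while at 2 months both sets lie between 6.60 and 6.79.

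Hs6st2 lies on the mouse X chromosome, and RefSeq (GRCm38.p6) gives it a pair of start sites, whose upstream bases are shown because its single probe set does not tell which start is used and whether it reads transcripts from both is not known here. The paralog Hs6st1 on chromosome 1, whose signal did not pass, is shown beside them. Each sequence is the 250 bases before the start, 5′ to 3′ on the gene's strand. Capitals mark matches on either strand to a short motif. The motifs searched were the GC box, spelled GGGCGG, the CCAAT box, spelled by its name, the TATA box, spelled TATAAA, the AP-1 element, spelled TGANTCA, and the E-box, spelled CACGTG. Matches to different motifs did not share bases in these windows. The first is chrX:51681603-51681852, minus strand, the second chrX:51680478-51680727, minus strand, and the last chr1:36068150-36068399, plus strand.
Hs6st2 upstream start: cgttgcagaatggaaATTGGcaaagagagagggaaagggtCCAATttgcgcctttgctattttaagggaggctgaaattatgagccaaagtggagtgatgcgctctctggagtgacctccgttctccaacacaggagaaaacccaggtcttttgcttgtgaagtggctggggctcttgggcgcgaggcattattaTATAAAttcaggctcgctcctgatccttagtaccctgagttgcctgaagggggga
Hs6st2 downstream start: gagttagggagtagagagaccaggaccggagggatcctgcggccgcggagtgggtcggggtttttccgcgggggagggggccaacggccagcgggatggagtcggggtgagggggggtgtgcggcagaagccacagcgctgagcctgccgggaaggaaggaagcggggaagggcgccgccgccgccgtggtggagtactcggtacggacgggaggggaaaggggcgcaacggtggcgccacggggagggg
Hs6st1: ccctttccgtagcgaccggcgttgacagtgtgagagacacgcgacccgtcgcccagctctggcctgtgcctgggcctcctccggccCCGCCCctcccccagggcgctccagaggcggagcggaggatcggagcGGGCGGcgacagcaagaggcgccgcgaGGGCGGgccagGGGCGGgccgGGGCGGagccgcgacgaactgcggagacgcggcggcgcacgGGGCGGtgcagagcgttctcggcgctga

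The upstream start of Hs6st2 had 2 CCAAT box matches, 1 TATA box match and 50.0% G and C. The downstream start had 0 matches to the 5 motifs and 72.0% G and C, and Hs6st1 had 6 GC box matches and 76.4% G and C. Of 32851 promoter entries in the table, 33.8% held a CCAAT box, 12.4% a TATA box, 32.7% a GC box, 6.7% an AP-1 element and 6% an E-box in the same window. These are matches of letters and not sites of binding. Of the 7 genes 6 had an entry, and Sulf1 was the one without.

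Hs6st1, another Golgi 6-O-sulfotransferase, had a mean log2 signal of 8.26. Its P347S arrays ran from 7.79 to 8.70 and its normal arrays from 7.95 to 8.54, and the genotypes overlapped at every age. The widest group was P347S retinas of 4 months, with 8.59, 8.70 and 7.79, beside 8.28, 8.46 and 8.15 in normal retinas of 4 months. The difference over the 4 ages was -0.0048 ± 0.09 (adjusted p = 0.974, 95% interval -0.19 to 0.18). At 4 months it was 0.07 ± 0.18 (adjusted p = 0.876), and without P347S replicate 3, the array at 7.79, it was 0.35 (adjusted p = 0.145). Hs6st3, the third 6-O-sulfotransferase, read near the bottom of the range (mean 3.98, above 28.1% of probe sets), from 3.81 to 4.09 in P347S and 3.72 to 4.18 in normal arrays. At 1 month the P347S arrays read 3.91, 3.86 and 3.81 and the normal arrays 3.94, 4.02 and 4.07, without overlap, but the difference of -0.15 ± 0.09 did not pass (adjusted p = 0.669), and 22.1% of all probe sets were apart at that age. Over the 4 ages it was -0.04 ± 0.04 (adjusted p = 0.500, 95% interval -0.13 to 0.05).

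Hs2st1, the gene of 2-O-sulfation, had a mean log2 signal of 8.71, with arrays from 8.16 to 8.89. Apart from 2 months, its P347S arrays lay between 8.70 and 8.85 and its normal arrays between 8.66 and 8.89. At 2 months the P347S arrays read 8.62, 8.51 and 8.16 and the normal arrays 8.65, 8.55 and 8.55. The Hs2st1 difference was -0.15 ± 0.09 at 2 months (adjusted p = 0.430) and -0.04 ± 0.04 over the 4 ages (adjusted p = 0.508, 95% interval -0.13 to 0.05). Glce, whose product makes the iduronic acid on which Hs2st1 mainly acts, read 7.75 to 8.39 in P347S and 7.80 to 8.23 in normal arrays (mean of all 8.05). At 1 month its P347S arrays read 7.94, 8.03 and 8.14 and its normal arrays 7.92, 7.82 and 7.92, without overlap. The Glce difference of 0.15 ± 0.10 did not pass (adjusted p = 0.737), and 22.1% of all probe sets were apart at that age. Over the 4 ages Glce differed by 0.08 ± 0.05 (adjusted p = 0.241, 95% interval -0.02 to 0.18). For these 5 genes the intervals over the 4 ages hold changes of up to 1.14-fold higher and, for the low side, 0.874 of the normal signal. A shift within that range could not be told from none. Intervals at single ages were wider, up to 1.36-fold higher for Hs6st1 at 4 months. Sulf2 and Hs6st3 had low signals on an array of unknown background, so a larger change in them could be compressed.

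**Figure D3:**
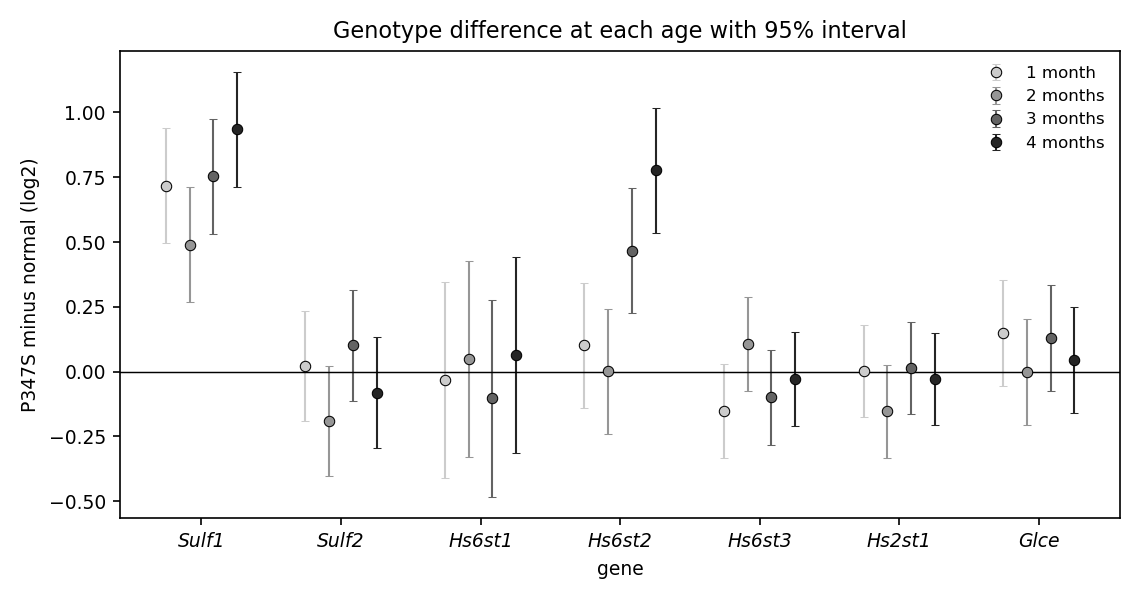
P347S minus normal log2 signal for each of the 7 genes at 1, 2, 3 and 4 months (light to dark points), with 95% intervals from the fit to all 24 arrays. The intervals of Sulf1 lie above 0 at every age, with 0.49 at 2 months the lowest estimate, those of Hs6st2 lie above 0 at 3 and 4 months, and the other genes' intervals include 0 at every age.

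Sulf1 and Hs6st2 encode opposing steps on the 6-O position, one removing and one adding sulfate, and both were highest in P347S retinas of 4 months. Across the 12 P347S arrays their Pearson correlation was 0.63, and across the 12 normal arrays it was -0.16. With group means removed it was 0.23 over the 24 arrays. These are descriptions over arrays that share age and genotype. In P347S arrays Hs2st1 and Glce had the highest correlation of any pair of the 7 genes (0.83), beside 0.43 in normal arrays. With group means removed the correlation of Hs2st1 and Glce was 0.45 over the 24 arrays. Both had their lowest P347S group mean at 2 months (8.43 and 7.93). Replicate 3 of that group had the lowest P347S value of both genes (8.16 for Hs2st1 and 7.75 for Glce), and the correlation without this array was not computed. Sulf1 and Sulf2 had a correlation of 0.07 in P347S and -0.19 in normal arrays.

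**Figure D4:**
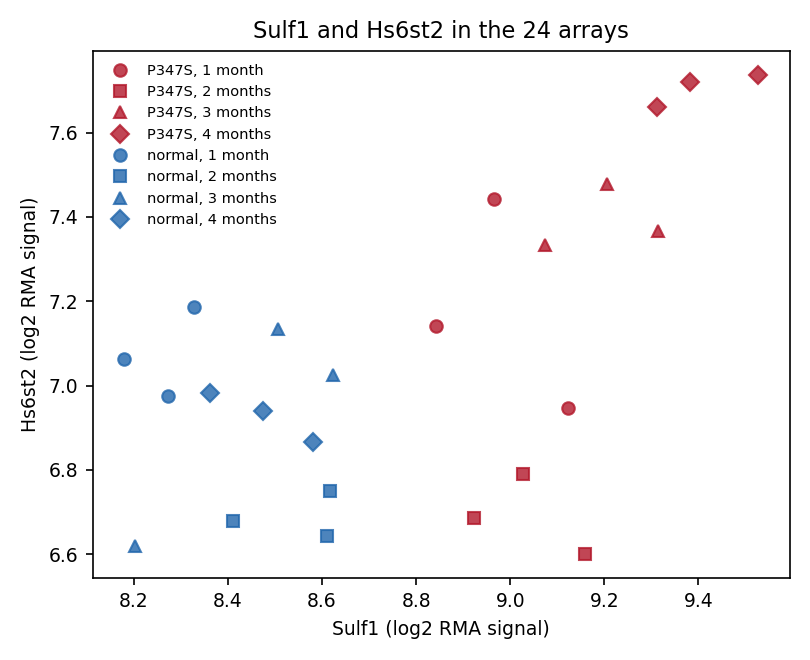
Sulf1 against Hs6st2 log2 RMA signal in the 24 arrays, coloured by genotype (P347S red, normal blue) and shaped by age. The P347S arrays of 4 months stand at the upper right (Sulf1 9.31 to 9.53, Hs6st2 7.66 to 7.74), and the P347S arrays of 2 months lie to the right of the normal arrays in Sulf1 and within their range or just below it in Hs6st2 (6.60 to 6.79).

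Among other named genes, those most like Sulf1 by Pearson correlation over the 24 arrays were Csf1r (0.92), the microglial receptor for CSF1, and the leukocyte adhesion molecules Vcam1 (0.91) and Icam1 (0.89). The genotype step enters these values: within the 12 P347S arrays the 3 correlations were 0.80, 0.85 and 0.83, and within the 12 normal arrays 0.32, 0.30 and 0.44. With group means removed they were 0.43, 0.78 and 0.61 over the 24 arrays. Those most like Hs6st2 were Fgf13 (0.91), an intracellular member of the FGF family, Gfra2 (0.90), a receptor of the GDNF family, and Shh (0.90), a hedgehog ligand. Within each genotype these correlations were 0.94, 0.93 and 0.92 in P347S and 0.86, 0.72 and 0.76 in normal arrays. With group means removed they were 0.71, 0.55 and 0.48, and all 3 genes, like Hs6st2, had their lowest group mean of each genotype at 2 months. Fgf13 averaged 10.31 in P347S retinas of 4 months and 9.80 in normal retinas of 4 months, and it was lowest at 2 months in both genotypes (9.79 in P347S and 9.46 in normal retinas).

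Some markers of other cell types also differed between the genotypes over the 4 ages. Of 10 markers of microglia and macrophages 4 were measured (Csf1r, Cx3cr1, Adgre1 and Siglech), all rose over the 4 ages, and their summed linear signal ran from 405 to 807 in P347S arrays and from 254 to 330 in normal arrays, without overlap. Of 11 markers of Müller glia and astrocytes 5 were measured and 4 rose (Vcam1, Icam1, Fgf2 and Cd44). The other, Lgals1, had the highest mean log2 signal of the 5 (8.85) and did not pass (0.10, limma adjusted p = 0.673). The sum of all 5, in which Lgals1 weighs most, was 788 to 1744 in P347S and 532 to 1465 in normal arrays. The Müller glial markers Gfap, Vim, Glul, Rlbp1, Aqp4 and Slc1a3 were not measured, nor were the microglial markers Aif1 and Tmem119. Vcam1 and Icam1 are the leukocyte adhesion molecules named above. The 4 rises therefore cannot be assigned to Müller glia. Of 8 markers of endothelium and pericytes 4 were measured and 2 rose (Mcam and Cd34). At single ages Mcam passed only at 1 month and Cd34 only at 4 months. Pecam1 (-0.05, limma adjusted p = 0.712) and Pdgfrb (0.04, limma adjusted p = 0.648) did not pass over the 4 ages. The sum of the 4 ran from 147 to 236 in P347S and from 142 to 182 in normal arrays. The connective tissue genes Dcn, Lum and Bgn summed to 70.6 to 159 in P347S and 69.0 to 237 in normal arrays, and did not pass. The ganglion cell marker L1cam (385 to 745 in P347S and 393 to 678 in normal arrays) did not pass. Gnb1, the only gene of the rod list that was measured, ran from 6285 to 8440 in P347S and from 6393 to 9799 in normal arrays. Its difference over the 4 ages was -0.21 ± 0.06 (limma adjusted p = 0.0121), and it passed at no single age (adjusted p from 0.224 to 0.867). Within P347S retinas Gnb1 was not lower at 4 months than at 1 month (0.09 ± 0.12, limma adjusted p = 0.835). Rod loss cannot be read from this 1 gene, whose mean log2 signal of 12.94 lay near the top of the array's range. Without the 3 arrays high in Grifin the microglial sum kept these ranges, the Müller glial sum ran from 788 to 1282 in P347S and 532 to 912 in normal arrays, and the endothelial sum from 161 to 236 in P347S and 142 to 182 in normal arrays. The part of these cell types in the Sulf1 and Hs6st2 results was not tested.

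The remaining genes of heparan sulfate moved both ways. Of 41 other measured genes for synthesis, sulfate supply, core proteins and breakdown, 10 rose, 6 fell and 25 did not pass over the 4 ages, with a median difference of 0.03. This and the counts by step below stand beside 13.8% of all probe sets higher and 8.83% lower, with a median of -0.03. Of 5 genes that start the chain on the core protein 0 rose and 2 fell, the xylosyltransferase Xylt1 (-0.16 ± 0.04, adjusted p = 0.00696) and the galactosyltransferase B4galt7 (-0.13 ± 0.04, adjusted p = 0.0196). Of 9 genes of chain polymerisation and N-sulfation 2 rose, Extl2 (0.26 ± 0.05, adjusted p = 0.000762), a glycosyltransferase of the exostosin family, and the N-sulfotransferase Ndst3 (0.26 ± 0.06, adjusted p = 0.00180), and 2 fell, the chain polymerases Ext1 (-0.61 ± 0.12, adjusted p = 0.000725) and Ext2 (-0.14 ± 0.04, adjusted p = 0.0276). Of 6 3-O-sulfotransferases Hs3st5 (0.25 ± 0.04, adjusted p = 0.000182) and Hs3st1 (0.23 ± 0.05, adjusted p = 0.000895) rose and 0 fell. The probe set of Hs3st1 carries the suffix s, the maker's mark for probes that other transcripts can share. So do those of Gnb1, Cx3cr1, Lgals1 and Dcn above and of Papss2, Gpc3, Met, Fgf2, Fgfr1 and Fgfr2 below. Hs3st5 and Hs3st1 passed at 3 months (0.31 and 0.42) and at 4 months (0.49 and 0.41), as Hs6st2 did.

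Of 3 genes that supply the sulfate donor PAPS, Papss1 rose (0.18 ± 0.04, adjusted p = 0.00583) and Papss2 had -0.22 and did not pass (adjusted p = 0.166). Papss2 fell at 2 months (-0.97, adjusted p = 0.0200) and had -0.33, 0.18 and 0.23 at 1, 3 and 4 months, which did not pass. At 2 months the connective tissue gene Dcn read 4.60, 6.45 and 6.90 in normal and 4.23, 4.49 and 4.78 in P347S arrays. The part of such tissue in the Papss2 value was not tested. Of 12 core proteins 3 rose, the glypicans Gpc3 (0.46 ± 0.09, adjusted p = 0.000920) and Gpc4 (0.28 ± 0.08, adjusted p = 0.0160) and the matrix proteoglycan Agrn (agrin, 0.31 ± 0.07, adjusted p = 0.00218), and 1 fell, Gpc2 (-0.27 ± 0.06, adjusted p = 0.00147). Of 6 breakdown genes 2 rose, heparanase Hpse (0.31 ± 0.09, adjusted p = 0.0173) and the lysosomal glucuronidase Gusb (0.28 ± 0.08, adjusted p = 0.0135), and 1 fell, Hpse2 (-0.18 ± 0.05, adjusted p = 0.0130), a heparanase relative that lacks the cleaving activity. Sulf1 therefore had the largest absolute difference of these 48 genes over the 4 ages, followed by Ext1.

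**Figure D5:**
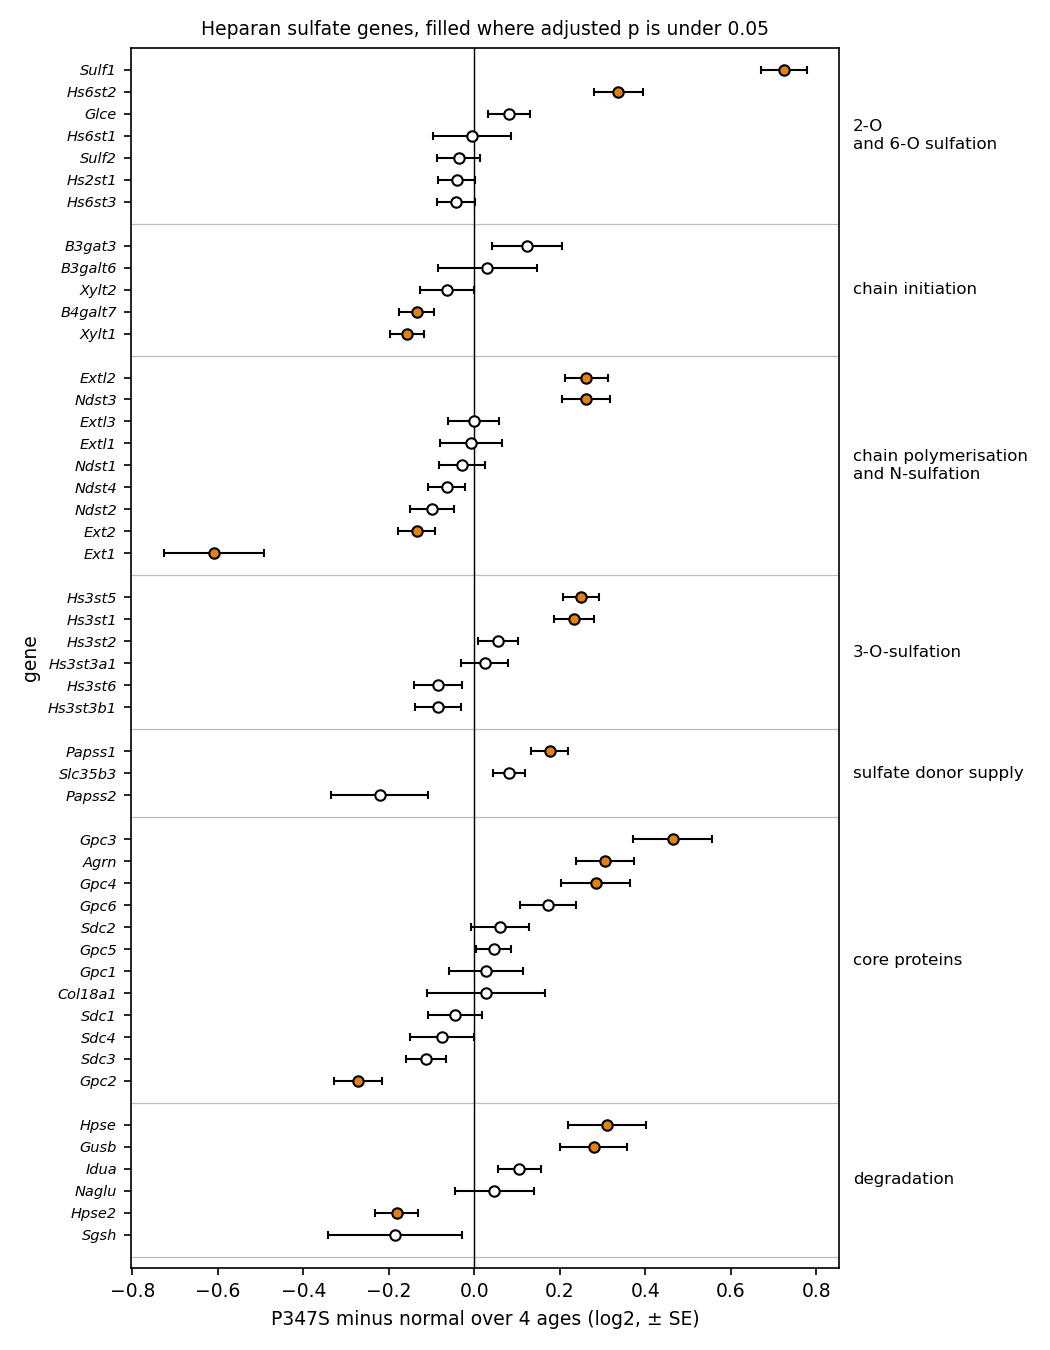
P347S minus normal log2 signal over the 4 ages (points ± SE) for the 7 genes of 2-O and 6-O sulfation and 41 other heparan sulfate genes, grouped by step and filled where the limma adjusted p is under 0.05. Sulf1 at 0.72 stands farthest to the right and Ext1 at -0.61 farthest to the left.

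A last list held 28 measured growth factors, chemokines and receptors, most of which bind heparan sulfate. Of these 7 rose, 0 fell and 21 did not pass over the 4 ages, with a median of 0.04, beside 13.8% of all probe sets higher and 8.83% lower. The chemokine Cxcl12 rose by 0.67 ± 0.08 (adjusted p = 4.63e-06) in 1 of its 2 probe sets, the other reading 0.03 (adjusted p = 0.851). The hepatocyte growth factor receptor Met rose by 0.70 ± 0.10 (adjusted p = 4.48e-05), Fgf13 by 0.30 ± 0.05 (adjusted p = 5.67e-05) and Fgf2 by 0.34 ± 0.05 (adjusted p = 6.18e-05). Fgf2 had a mean log2 signal of 3.57, below the 25th percentile of probe sets, so its fold is uncertain. Fgfr2, Fgfr3 and Fgfr4 were among the 21 that did not pass, and Fgfr1 rose by 0.13 (adjusted p = 0.0305).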

How the data were processed

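Per the labels' protocols, RNA was isolated with Trizol, and cRNA labelled with biotin was put on Affymetrix arrays. The deposited values are log2 signals from RMA, per the submitters' processing notes. Its version, the arrays normalized together and any filter are not given in the sources used here. Values ran from 1.90 to 14.17 over 1246 probe sets and 24 arrays and were not rescaled. Gene names came from the RefSeq accession in each probe set name (GRCm38.p6 table), and 283 probe sets stayed unnamed.

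A linear model with 8 group means was fitted in R 4.3.3 with limma 3.58.1 (lmFit and eBayes, 16 residual and 4.37 prior degrees of freedom). It gave P347S minus normal at each age and over the 4 ages, a moderated F test of its change with age, and, for P347S and normal retinas apart, 4 months minus 1 month. Two-sided p-values were adjusted by the Benjamini-Hochberg method across all 1246 probe sets, with a threshold of 0.05. The fit was tested on simulated data.

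Named were all 7 genes whatever their test, the 3 named genes most correlated with each gene that passed over the 4 ages, and up to 4 passing genes of each list by smallest p. Papss2, Fgfr1 to Fgfr4 and the Hs2st1 and Glce correlation were added after their values were seen. Lists used the probe set with the highest mean. The members, lists and alternatives were chosen with earlier results of these data known. Replicate numbers were checked for pairing: deviations of same-numbered P347S and normal arrays correlated above 0.1 in 3 of 12 pairs. These were the 3 pairs of 2 months (r from 0.25 to 0.66), while the 9 pairs of the other ages lay between -0.03 and 0.08. Deviations were taken from a mean of 3 arrays, so the 3 correlations of an age are not independent. The highest r was that of replicate 2, high in Grifin in both genotypes. The check therefore cannot show whether equal numbers mark a shared unit, and the block was kept as an alternative.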

Additional observations from a re-analysis of the deposited data

How the results depend on the processing

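Sulf1 and Hs6st2 passed over the 4 ages and at 4 months, and Sulf1 at 1 and 3 months, in every alternative run. With each array left out in turn the Sulf1 difference over the 4 ages ran from 0.69 to 0.75 and that of Hs6st2 from 0.30 to 0.37. The calls that ended are given with their values in the results, and the cause was not tested. The counts over all probe sets moved more, and 3 arrays a group limit them. At 1 month 4 probe sets passed, against 10 with each array centred on its median, 8 with quantile normalization again, 7 with the lowest 25% of probe sets left out, 28 with only the arrays compared and 3 to 13 with 1 array left out. With only the arrays compared, 2, 40 and 103 passed at 2, 3 and 4 months, and 1 within normal retinas between 1 and 4 months (also 1 with an intensity trend). With 1 array left out they were 14 to 62, 66 to 168 and 107 to 179, those within P347S retinas 9 to 45 and those of the F test 0 to 31. Without the 3 arrays high in Grifin 1 passed at 2 months and 0 in the F test. Over the 4 ages 172 were higher and 110 lower, beside 161 and 157 with quantile normalization again.

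Of the 7 genes, 1 passed within P347S retinas with centred arrays, where 22 of all 1246 probe sets passed. With only the arrays compared 0 of the 7 passed within P347S retinas. With 1 array left out 0 to 2 passed, beside 9 to 45 of all probe sets. At 2 months 0 of the 7 passed with only the arrays compared and without the 3 arrays, beside 2 and 1 of all probe sets. With 1 array left out 0 to 1 passed, beside 14 to 62 of all probe sets. At 3 months 1 passed with quantile normalization again and with only the arrays compared (1 to 2 with 1 array left out). In the F test 0 to 1 of the 7 passed with 1 array left out, beside 0 to 31 of all probe sets.

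With the replicate number as a block, 7 probe sets passed at 1 month and 0 in the F test. The adjusted p over the 4 ages was then 3.55e-06 for Sulf1 and 0.000636 for Hs6st2, and at 2 months it was 0.0338 for Sulf1. The block changed no call of the 7 genes in the genotype comparisons at each age, over the 4 ages or in the F test, and since it pairs arrays within an age it gives no fit of 4 months minus 1 month.

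Small differences that did not pass changed sign. With centred arrays these were Hs6st1 over the 4 ages (0.021), at 1 month (0.0027) and within normal retinas (-0.013), Glce at 2 months (-0.00063), Hs6st3 (0.0080) and Hs2st1 (0.0081) at 4 months, and Sulf2 within normal retinas (-0.0087). With quantile normalization again they were Hs2st1 at 1 month (-0.016) and within P347S retinas (-0.017), Hs6st2 at 2 months (-0.012), Hs6st1 (-0.053), Hs6st3 (0.026) and Glce (-0.093) at 4 months, and Hs6st3 within normal retinas (-0.0012). Without the 3 arrays high in Grifin they were Hs6st1 over the 4 ages (0.0031) and Hs6st3 at 2 months (-0.0032). With 1 array left out, Glce ran from -0.094 to 0.091 at 2 months and -0.026 to 0.096 at 4 months, and Hs2st1 from -0.031 to 0.050 at 1 month and -0.028 to 0.051 at 3 months. Hs6st1 ran from -0.048 to 0.066 over the 4 ages, -0.19 to 0.10 at 1 month, -0.027 to 0.11 at 2 months, -0.11 to 0.35 at 4 months, -0.053 to 0.40 within P347S and -0.14 to 0.15 within normal retinas. Hs6st2 ran from -0.031 to 0.22 at 1 month and -0.047 to 0.047 at 2 months, and Hs6st3 from -0.099 to 0.035 at 4 months and -0.012 to 0.12 within normal retinas. Sulf2 ran from -0.061 to 0.080 at 1 month, -0.16 to 0.013 at 4 months, -0.15 to 0.016 within P347S and -0.058 to 0.082 within normal retinas.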

Other observations

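Hs6st2 and Hs2st1 read low at 2 months in both genotypes. Hs6st2 averaged 6.69 in P347S retinas of 2 months, 0.73 below the mean of the other ages, and 6.69 in normal retinas of 2 months, 0.29 below. Hs2st1 averaged 8.43 in P347S retinas of 2 months, 0.34 below the mean of the other ages, and 8.58 in normal retinas of 2 months, 0.20 below. Sulf2 was also lowest at 2 months in both genotypes, by 0.28 in P347S and 0.08 in normal retinas, while Sulf1, Hs6st1, Hs6st3 and Glce were not. Over all probe sets 16.9% had their lowest mean at 2 months in both genotypes. In 2.89% that mean also lay at least 0.25 below the mean of the other ages in both, among them Hs6st2 and Fgf13. Without the 2 arrays of 2 months and the 1 of 4 months that were high in Grifin, 2 arrays a genotype were left at 2 months, and the gaps were 0.69 in P347S and 0.29 in normal retinas for Hs6st2, 0.38 and 0.17 for Hs2st1, and 0.23 and 0.07 for Sulf2. At 2 months arrays of equal replicate number also deviated together across the genotypes, with replicate 2 of both high in Grifin. The pattern was noticed in the data and not tested, and the labels give no hybridisation batch by which the ages could be told from one.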
